A study of Mus musculus with 12 samples.

Results

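The 10 myeloid lineage transcription factors described here were followed in mouse LSK cells, the lineage-negative, Sca-1+ and c-Kit+ gate of bone marrow, in which stem cells and multipotent progenitors lie. The members were taken by name, with no cut on a measured value but with earlier results of these data known. They are Sfpi1 (the gene of PU.1), Cebpa, Cebpb, Cebpd, Cebpe, Gfi1, Irf8, Klf4, Id2 and Myb, 10 of the 37187 genes in the deposited table. The 12 libraries came from 4 genotypes with 3 libraries each: Tet2 KO (Tet2 removed), Traf6 KO (Traf6 removed), dKO (Tet2 and Traf6 both removed) and WT. Per the labels all cells were sorted from bone marrow; no age, sex, Cre driver or treatment was given in the sources used here. Nothing in the labels says that the libraries of a genotype came from separate animals, so every p-value measures a spread between libraries that may be technical.

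Myeloid cells are made from stem and progenitor cells by a small network of transcription factors. PU.1, an ETS family protein, opens the myeloid programme and its dose helps to set the balance between macrophage and granulocyte fates. C/EBPα is needed to form granulocyte and monocyte progenitors, C/EBPε acts later in granulocyte maturation, and C/EBPβ and C/EBPδ are family members that respond to cytokines and inflammation. GFI1, a zinc finger repressor, favours neutrophils, whereas IRF8 and KLF4 favour monocytes and dendritic cells. ID2 holds E proteins off DNA, and MYB keeps progenitors immature and cycling.

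In dKO cells 4 of the factors rose against WT: Sfpi1, Cebpb, Cebpd and Id2, by 3.03, 2.86, 6.08 and 2.73 times. Myb fell to 0.538 of its WT level, a call that ended once the dependence of the values on transcript length and base composition was taken off. With that dependence taken off and the library dKO 3 left out, the calls of Cebpb and Id2 ended as well. Of all tested genes 21.9% were called higher in dKO than in WT and 26.5% lower. Cebpa, Cebpe, Gfi1 and Irf8 did not pass the test against WT, and Klf4 was too low to be tested. No tested member passed the test in either single knockout against WT, where 0.413% (Tet2 KO) and 0.271% (Traf6 KO) of all tested genes did. The test was limma on log2(value + 1) over all 14045 genes that reached 10 in 3 or more libraries, and a gene was called at a Benjamini-Hochberg adjusted p below 0.05.

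The values are a normalised signal, the reads of a gene over the library's size factor, and 22169673 to 53921402 reads stood behind a library. Summed over all genes the signal was 3.997e+07 in dKO 3. In the rest it ran from 2.556e+07 (Tet2 KO 1) to 2.892e+07 (dKO 2), so single values of dKO 3 are to be read with that in mind. With library totals made equal, 5 members were again called in dKO against WT. Tet2 averaged 519 ± 135 in Tet2 KO, 496 ± 201 in Traf6 KO, 261 ± 64.3 in dKO and 682 ± 138 in WT (SD, n = 3 each). Traf6 averaged 2112 ± 896 in Tet2 KO, 1299 ± 1028 in Traf6 KO, 1026 ± 263 in dKO and 2632 ± 605 in WT. In dKO against WT, Tet2 and Traf6 changed by log2 -1.39 and -1.36 (adjusted p = 0.00659 and 0.0278 by limma). Both calls ended after removal of the length and GC trend described below (0.26 and -0.10). Tet2 was not called in Tet2 KO against WT (log2 -0.41, adjusted p = 0.969 by limma). Nor was Traf6 in Traf6 KO against WT (-1.28, adjusted p = 0.497), and in both cases the groups overlapped. In the library labelled Tet2 KO 1, Tet2 read 668, and in the library labelled Traf6 KO 1, Traf6 read 2474; both lie inside the WT range. The deleted exons were not given, so these whole-gene values may include reads from outside the deletion. Xist read 990.3 to 3826 in all 6 single knockout libraries and 0 to 17.03 in the dKO and WT libraries, so sex and genotype cannot be told apart in any comparison with a single knockout, be it against dKO or WT, nor in the interaction. The library labelled Traf6 KO 1 held the Y-linked Eif2s3y at 1524 beside Xist. Signal also leaned on transcript length: the rank correlation of a gene's deviation from the WT mean with length was -0.64 to -0.55 in the 3 dKO libraries and -0.42 to 0.31 in the other 9. For that reason each change of a tested member in dKO against WT is also given with this trend of length and GC content removed, and the part of the trend in a result was not tested further.

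The promoters of 4 members are shown side by side. They are those of 3 factors called in dKO against WT (Cebpb, Id2 and Myb) and of Cebpa, which did not pass the test. RefSeq promoters on build GRCm38.p6, 250 bases before to 50 after an annotated start, were at hand for 7 of the 10 members. A set of 6 motifs was searched on both strands. They were the E-box CACGTG of MYC, the cAMP element TGACGTCA and the PU.1 core GAGGAAG. The C/EBP site TTGCNNAA, the AP-1 site TGANTCA and the TATA box TATAAA completed the set. Capitals mark a match and the sequence runs 5′ to 3′.
Cebpb, chr2:167688665-167688964, plus strand: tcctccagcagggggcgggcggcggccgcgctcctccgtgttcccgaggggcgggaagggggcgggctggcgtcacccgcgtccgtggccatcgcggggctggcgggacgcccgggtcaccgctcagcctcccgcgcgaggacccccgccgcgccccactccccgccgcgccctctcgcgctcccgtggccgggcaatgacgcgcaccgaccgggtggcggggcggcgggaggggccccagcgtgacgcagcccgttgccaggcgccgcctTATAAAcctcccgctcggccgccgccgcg
Id2, chr12:25096043-25096342, minus strand: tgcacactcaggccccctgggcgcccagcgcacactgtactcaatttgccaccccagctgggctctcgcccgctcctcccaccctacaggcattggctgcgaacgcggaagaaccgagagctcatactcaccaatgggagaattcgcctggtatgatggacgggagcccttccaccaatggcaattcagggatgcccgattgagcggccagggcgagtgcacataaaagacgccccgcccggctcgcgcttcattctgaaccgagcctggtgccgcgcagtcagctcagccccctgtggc
Myb, chr10:21160935-21161234, minus strand: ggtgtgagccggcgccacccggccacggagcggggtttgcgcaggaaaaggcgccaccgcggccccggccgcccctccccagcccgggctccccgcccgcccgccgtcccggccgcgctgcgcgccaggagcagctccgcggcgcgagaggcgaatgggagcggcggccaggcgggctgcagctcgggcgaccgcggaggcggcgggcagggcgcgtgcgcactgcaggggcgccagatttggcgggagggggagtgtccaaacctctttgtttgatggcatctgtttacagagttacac
Cebpa, chr7:35119043-35119342, plus strand: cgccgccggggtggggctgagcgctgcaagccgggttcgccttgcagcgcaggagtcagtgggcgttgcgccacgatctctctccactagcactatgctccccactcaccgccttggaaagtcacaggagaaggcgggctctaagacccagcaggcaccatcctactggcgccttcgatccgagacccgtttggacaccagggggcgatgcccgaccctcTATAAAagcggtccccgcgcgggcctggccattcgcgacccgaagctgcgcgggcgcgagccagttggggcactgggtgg
The windows are rich in G and C, with 80.7% in Cebpb, 63.3% in Id2, 75.0% in Myb and 67.3% in Cebpa, against a median of 52.7% over 32851 promoters. TATAAA, which 13.6% of all promoters held, was found in Cebpb, Cebpa and Irf8. Relative to the annotated start the match began at -30 in Cebpa and at -31 in Irf8. In Cebpb it began at 21, after the start. CACGTG, in 7.15% of all promoters, was found in Klf4, and TTGCNNAA, in 10.8%, was found in Gfi1. No member's window held TGACGTCA, GAGGAAG or TGANTCA, which 1.79%, 13.6% and 7.81% of all promoters held.

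Sfpi1 (chromosome 2, 91082390 to 91115756, plus strand, GRCm38, 5 exons) encodes PU.1. It read 4286, 6894 and 5803 in the libraries labelled Tet2 KO 1, 2 and 3, and 3768, 5694 and 5127 in Traf6 KO. It read 8281, 11903 and 22409.6 in dKO, against 4403, 3697 and 4867 in WT. Each dKO library stood above all 9 others, and dKO 3, which also had the highest summed signal, was the highest of the 12. The log2 change of dKO against WT was 1.60 ± 0.32 (SE), adjusted p = 0.00229 by limma. After removal of the length and GC trend it was 1.38, adjusted p = 0.00346, and without dKO 3 it was 1.21. The mean was 14198 ± 7339 in dKO and 4322 ± 589 in WT (SD, n = 3 each), so the dKO libraries were also the more spread. In bulk RNA of this kind, more cells of a type that holds PU.1 and more Sfpi1 RNA per cell cannot be told apart, and the same goes for every gene below.

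**Figure D1:**
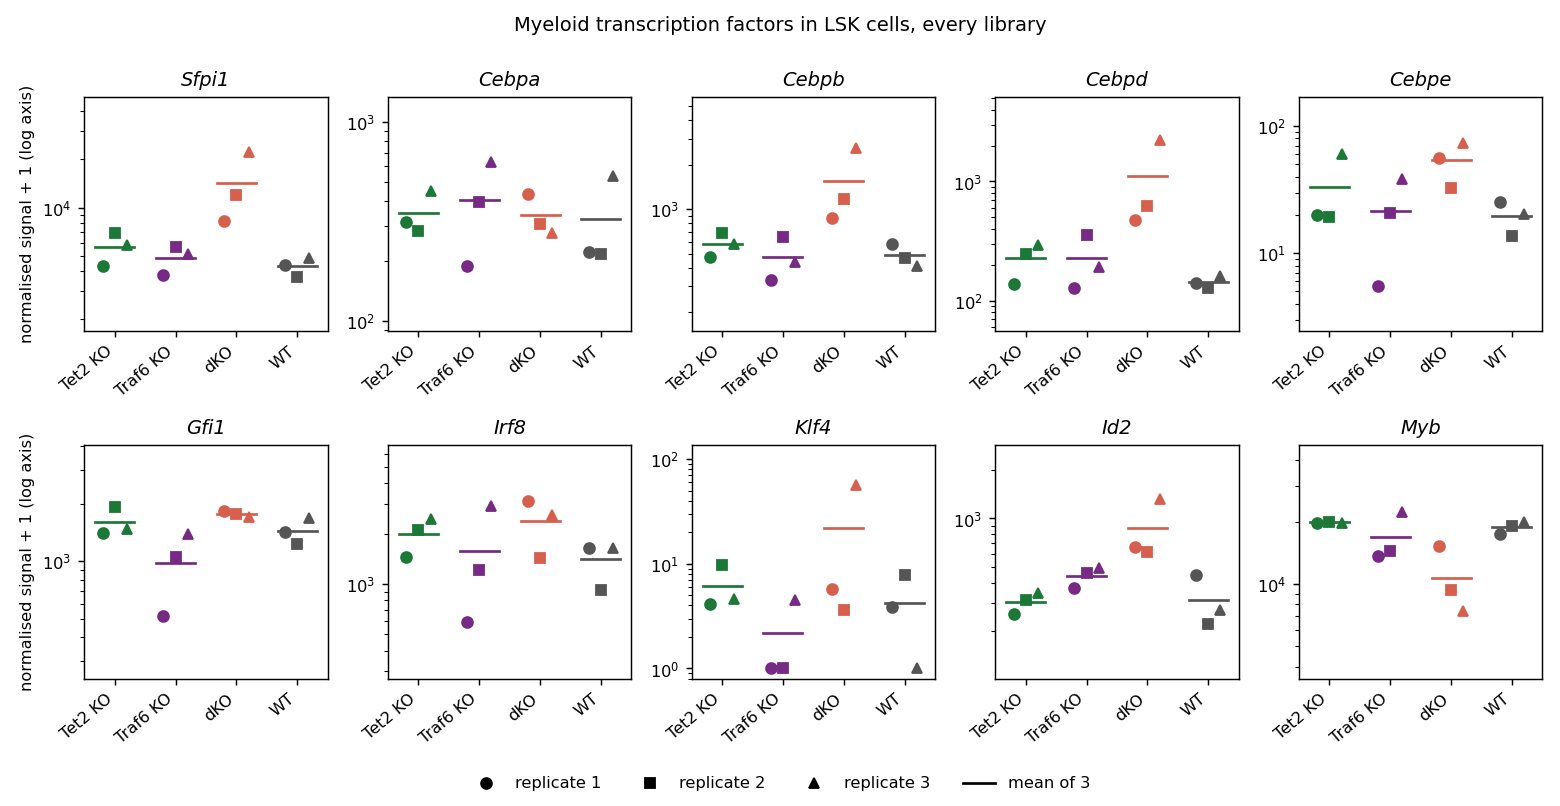
Normalised signal plus 1 (vertical axis, log scale) of the 10 factors in each library, by genotype (horizontal axis); marker shapes are replicates 1 to 3 and lines are means of 3. For Sfpi1, Cebpb, Cebpd and Id2 the 3 dKO libraries stand above the 3 WT libraries and dKO 3 is the highest of 12; for Myb the dKO libraries lie below WT and dKO 3 is the lowest.

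Not every gene of the C/EBP family passed the test in dKO against WT, which does not show that they changed differently. With the trend removed the log2 changes were 0.60 (Cebpa), 1.02 (Cebpb), 3.33 (Cebpd) and 0.48 (Cebpe). Cebpb and Cebpd rose in dKO, Cebpa overlapped between all groups, and Cebpe was higher in all 3 dKO libraries than in WT without passing the test. Cebpb (chromosome 2, 167688915 to 167690418, 1 exon) encodes the C/EBP of emergency granulopoiesis and macrophage activation. It read 476, 691 and 576 in Tet2 KO, and 330.15, 642 and 438 in Traf6 KO. It read 867, 1162 and 2581 in dKO, against 581, 464 and 411 in WT. All dKO values lay above all others. The log2 change against WT was 1.52 ± 0.39 (SE), adjusted p = 0.00723 by limma, and 1.02 with the trend removed, adjusted p = 0.0220. It was 0.82 and no longer called with the trend removed and dKO 3 left out, adjusted p = 0.0647. Tmem189 lies on the other strand over Cebpb, and the SMART-Seq kit does not mark strand, so reads of the pair cannot be told apart there.

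Cebpd (chromosome 16, 15887286 to 15891031, 1 exon) encodes a C/EBP induced by inflammatory cytokines. It read 136, 244 and 295 in Tet2 KO, and 127, 357 and 192 in Traf6 KO. It read 478, 616 and 2213 in dKO, against 139.8, 127 and 161 in WT. The change was the largest among the members: log2 2.60 ± 0.55 (SE), adjusted p = 0.00279 by limma. It rested in size, not in its call, on dKO 3, without which it was 1.93, adjusted p = 0.00615. Once the trend was removed it was 3.33 when the transcript was taken as 3746 bases (GENCODE M21) and 2.42 when it was taken as 2260 bases (RefSeq), adjusted p = 0.00248 and 0.00478. Spidr lies on the other strand over Cebpd, as Gm45091 does over Cebpa and Gm26577 over Myb. The kit does not mark strand, so reads of such a pair cannot be told apart where they overlap.

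Cebpa (chromosome 7, 35119293 to 35121928, 1 exon), the family member needed for the step into the granulocyte and monocyte lineage, read 313, 282 and 449 in Tet2 KO, and 188, 394 and 627 in Traf6 KO. It read 434, 308 and 277 in dKO, against 221, 217 and 536 in WT. The groups overlapped, and the log2 change of dKO against WT was 0.17 ± 0.47 (SE), adjusted p = 0.779 by limma, and 0.60 with the trend removed, adjusted p = 0.323. Cebpe (chromosome 14, 54710360 to 54712174, 2 exons), which acts in late granulocyte maturation, was scarce: 19.0, 18.4 and 59.0 in Tet2 KO, and 4.55, 19.7 and 37.3 in Traf6 KO. It read 55.4, 31.3 and 73.3 in dKO, against 24.1, 12.6 and 19.2 in WT, from 11 to 59 reads per library in these 6. The 2 groups did not overlap, yet the log2 change of 1.43 ± 0.77 (SE) had adjusted p = 0.140 by limma, and it was 0.48 with the trend removed, adjusted p = 0.671.

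Gfi1, Irf8 and Klf4, the factors of the granulocyte and monocyte branches, were not called in dKO against WT. Gfi1 (chromosome 5, 107716657 to 107726036, 6 exons) read 1413, 1914 and 1480.5 in Tet2 KO, and 517, 1048 and 1385 in Traf6 KO. It read 1843, 1775 and 1707 in dKO, against 1417, 1235 and 1689 in WT. All 3 dKO values lay just above WT, and the log2 change was 0.31 ± 0.32 (SE), adjusted p = 0.447 by limma, and 0.74 with the trend removed, adjusted p = 0.0859. The lowest reading of the 12 was in the library labelled Traf6 KO 1. The antisense gene A430072P03Rik lies over Gfi1.

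Irf8 (chromosome 8, 120736358 to 120756694, 9 exons) read 1439.7, 2098 and 2433 in Tet2 KO, and 590.3, 1219 and 2942 in Traf6 KO. It read 3128, 1437 and 2579 in dKO, against 1649.7, 919 and 1630.2 in WT. dKO 2 fell among the WT values, so the groups overlapped, and the log2 change was 0.74 ± 0.49 (SE), adjusted p = 0.226 by limma, and 1.07 with the trend removed, adjusted p = 0.0968. Gm20388 lies on the same strand over Irf8. Klf4 (chromosome 4, 55527143 to 55532466, 5 exons), a zinc finger factor of monocytes, read 3.16, 8.71 and 3.62 in Tet2 KO, and 0, 0 and 3.55 in Traf6 KO. It read 4.69, 2.61 and 55.4 in dKO, against 2.84, 6.85 and 0 in WT. Only dKO 3 exceeded 10, with 31 reads, where the other 11 libraries held 0 to 9 reads, so Klf4 did not enter the test; a count of 0 allows up to 3 reads, and this covers counting error only.

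Id2 (chromosome 12, 25093799 to 25097140, 4 exons) encodes an inhibitor that binds E proteins and favours several myeloid and innate lineages over B cells. It read 253, 313 and 341 in Tet2 KO, and 369, 456 and 489.9 in Traf6 KO. It read 668, 616 and 1314 in dKO, against 447, 220.5 and 268 in WT. All dKO values exceeded all others. The log2 change against WT was 1.45 ± 0.36 (SE), adjusted p = 0.00619 by limma, and 0.94 with the trend removed, adjusted p = 0.0262. With the trend removed and dKO 3 left out it was 0.76 and no longer called, adjusted p = 0.0746.

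Myb (chromosome 10, 21124935 to 21160984, minus strand, 16 exons), the factor of immature cycling progenitors, moved the other way. It read 19857, 20127 and 19816 in Tet2 KO, and 13674, 14556.5 and 22428 in Traf6 KO. It read 15246, 9421 and 7390.05 in dKO, against 17581, 19240.0 and 20121 in WT. All dKO values were below all WT values, and dKO 3 was the lowest of the 12. The log2 change was -0.89 ± 0.26 (SE), adjusted p = 0.0138 by limma. Of it, -0.56 was the part taken off with the length and GC trend, and the remaining -0.33 had adjusted p = 0.273.

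In dKO against WT, then, 4 of the 9 tested members were called higher and 1 lower by limma, where 21.9% and 26.5% of all 14045 tested genes were called higher and lower. After its removal 4 were higher and 0 lower, 6 having an unadjusted p under 0.05, against 14.6% higher and 10.7% lower of 13677 genes. The median log2 change of the 9 was 1.43, beside -0.09 over all tested genes, and 0.94 beside 0.05 with the trend removed. In 6 members all dKO libraries stood above all WT libraries, in 1 all stood below and in 2 the groups overlapped; over all tested genes 27.9% stood wholly above and 30.5% wholly below. Each of the 5 calls held in all 12 fits that left out 1 library.

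**Figure D2:**
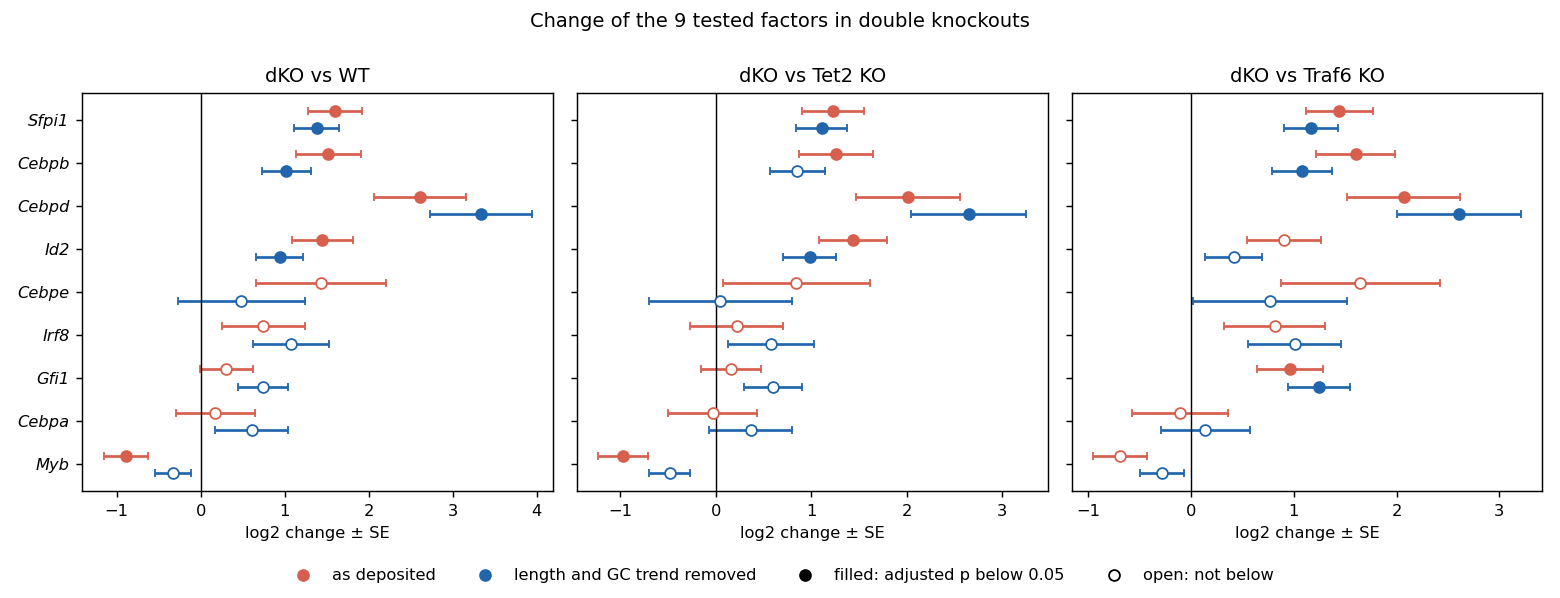
Log2 change of the 9 tested factors (horizontal axis, with SE bars) in dKO against WT, Tet2 KO and Traf6 KO, on deposited values and after removal of the length and GC trend; filled points have an adjusted p below 0.05. Sfpi1 and Cebpd are filled in all 3 panels under both treatments, and Myb moves from -0.89 to -0.33 against WT when the trend is removed.

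Sfpi1, Cebpb, Cebpd and Id2 stood higher in every dKO library than in every single knockout library. Myb had a lower mean in dKO than in either single knockout, but its dKO and Traf6 KO libraries overlapped. Only Sfpi1, Cebpb and Cebpd were called against both. Set against Tet2 KO, dKO was higher in 4 members (Sfpi1 by log2 1.23, Cebpb by 1.26, Cebpd by 2.01 and Id2 by 1.44; adjusted p = 0.0154, 0.0260, 0.0169 and 0.0132 by limma). It was lower in Myb, log2 -0.97, adjusted p = 0.0166. Among all tested genes 15.5% were called higher and 19.9% lower. With the trend removed the calls of Sfpi1 (1.11), Cebpd (2.65) and Id2 (0.99) stood, and those of Cebpb (adjusted p = 0.0689) and Myb (0.144) ended, where 6.75% of all genes were higher and 4.77% lower. Without the library labelled Tet2 KO 1 all 5 calls ended, with adjusted p = 0.0612 to 0.0980 and log2 changes of 1.04 (Sfpi1), 1.12 (Cebpb), 1.69 (Cebpd), 1.32 (Id2) and -0.97 (Myb). Cebpb also lost its call without dKO 3 (0.80, adjusted p = 0.0791) and without Tet2 KO 3 (1.26, adjusted p = 0.0591). With only these 2 groups in the fit all 5 calls ended at the same log2 changes, with adjusted p = 0.0718 (Sfpi1), 0.0835 (Cebpb), 0.0669 (Cebpd), 0.0631 (Id2) and 0.0719 (Myb).

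Set against Traf6 KO, dKO was higher in Sfpi1 (log2 1.44, adjusted p = 0.00716), Cebpb (1.60, adjusted p = 0.0103), Cebpd (2.07, adjusted p = 0.0153) and Gfi1 (0.97, adjusted p = 0.0321), by limma, and 0 of 9 were called lower, 6 of 9 having an unadjusted p under 0.05 in either direction. Among all tested genes 17.3% were called higher and 20.7% lower. After removal of the trend the same 4 were called, 7.18% of all genes being higher and 8.48% lower. The Gfi1 call ended without the library labelled Traf6 KO 1, its lowest reading (change 0.56, adjusted p = 0.134), without dKO 2 (0.96, adjusted p = 0.0661), without dKO 3 (0.99, adjusted p = 0.0559), with no filter (adjusted p = 0.0555), with equal library totals (0.77, adjusted p = 0.0826) and by edgeR (0.80, adjusted p = 0.0597). With only these 2 groups in the fit all 4 calls ended, the adjusted p being 0.0590 for Sfpi1, 0.0732 for Cebpb, 0.0809 for Cebpd and 0.124 for Gfi1. The Cebpd call ended without the library labelled Traf6 KO 1 (1.72, adjusted p = 0.0621) or without Traf6 KO 3 (2.02, adjusted p = 0.0523). Id2 (log2 0.90, adjusted p = 0.0618) and Myb (-0.69, adjusted p = 0.0516) missed the threshold, and without dKO 1 both were called, with changes of 1.05 and -0.98. Irf8 was called without Traf6 KO 3, with a change of 1.41, adjusted p = 0.0457. The comparisons of dKO share the dKO libraries, so their similarity is no separate evidence.

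No call was made for a member in either single knockout. In Tet2 KO against WT 0 of 9 members were called by limma, by edgeR or by DESeq2, 0 had an unadjusted p under 0.05, and 0.413% of all tested genes were called. The largest changes were 0.59 for Cebpd, 0.58 for Cebpe and 0.52 for Irf8. In Traf6 KO against WT the counts were again 0 of 9 by limma, edgeR and DESeq2 and 0 at an unadjusted p under 0.05, and 0.271% of all genes were called. Gfi1 stood at log2 -0.66 ± 0.32 (SE) there, adjusted p = 0.662, with 983 ± 438 in Traf6 KO and 1447 ± 228 in WT (SD, n = 3 each).

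Whether the loss of Traf6 acted differently with and without Tet2 was asked with the interaction, which takes the change from WT to Traf6 KO off the change from Tet2 KO to dKO. By limma 0 of 9 members were called, as by edgeR and DESeq2, and 0.221% of all tested genes were. Sfpi1 (log2 1.07, adjusted p = 0.264) and Cebpb (1.34, adjusted p = 0.257) had an unadjusted p under 0.05. Without dKO 1, Sfpi1 (1.40, adjusted p = 0.0354), Cebpb (1.68, adjusted p = 0.0445) and Myb (-1.05, adjusted p = 0.0362) were called. The rises of dKO are thus not shown to exceed the sum of the changes in the single knockouts.

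Levels of different genes were compared per kilobase of the longest protein-coding transcript. In WT the order was Myb (5140 ± 349 signal per kb), Sfpi1 (2125 ± 290), Gfi1 (506 ± 79.9), Irf8 (492 ± 146), Cebpb (323 ± 58.0), Id2 (158 ± 60.6), Cebpa (124 ± 69.6), Cebpd (38.0 ± 4.55), Cebpe (15.0 ± 4.68) and Klf4 (1.07 ± 1.14; SD, n = 3 throughout). Gfi1 and Irf8, Irf8 and Cebpb, and Id2 and Cebpa overlapped, and the other neighbours did not. In WT Myb thus stood 2.42 times above Sfpi1, whereas in dKO Sfpi1 stood at 6980 ± 3608 and Myb at 2894 ± 1104 signal per kb. The dKO libraries ranged from 4071 to 11018 for Sfpi1 and from 2001 to 4128 for Myb, so the ranges of the pair overlapped there. These levels still hold the length and GC trend. In dKO against WT that trend took up log2 0.22 of the Sfpi1 change and -0.56 of the Myb change. Cebpd stood at 294 ± 257 per kb in dKO and Cebpa at 129 ± 31.8, with ranges of 128 to 591 and 105 to 165 that also overlapped, while in WT Cebpd was the lower of the pair in every library. These Cebpd levels take its transcript as 3746 bases. They would be higher with the 2260 bases of RefSeq, so the overlap in dKO rests on that choice.

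**Figure D3:**
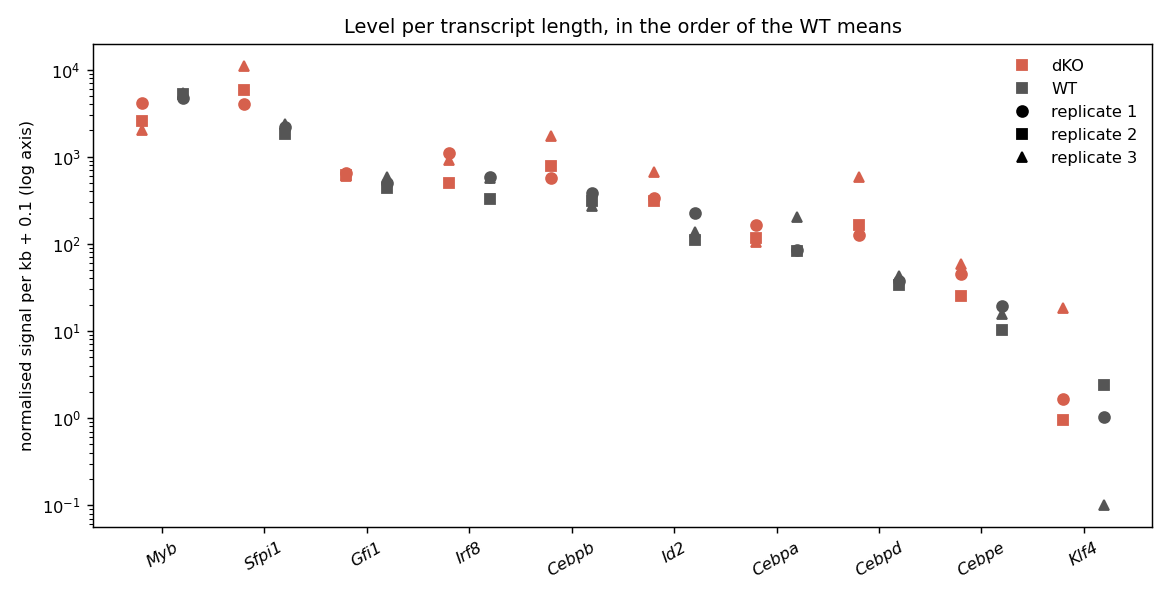
Normalised signal per kilobase of transcript plus 0.1 (vertical axis, log scale) of each factor in the 3 dKO and 3 WT libraries, ordered by the WT mean (horizontal axis); marker shapes are replicates. Myb leads in WT at 5140 per kb, Sfpi1 has the highest mean in dKO at 6980 per kb, although its lowest dKO library (4071) lies under the highest of Myb (4128), and Klf4 is the lowest in both. The length and GC trend is not removed here.

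Ratios between pairs of factors were compared per library as log2((a + 1)/(b + 1)). The 15 two-sided exact permutation tests cannot give a p below 0.1 with 3 against 3 libraries. The ratio of Cebpa to Sfpi1 was -4.25, -5.27 and -6.33 in dKO, against -4.31, -4.08 and -3.18 in WT. One dKO library lay among the WT values, and the difference of -1.43 had an exact p = 0.2, adjusted p = 0.545. It was -0.78 with the trend removed. The ratio of Cebpe to Cebpa, late over early granulocyte factor, was -2.95, -3.26 and -1.90 in dKO, against -3.15, -4.01 and -4.73 in WT, a difference of 1.26 with exact p = 0.2 that stood at -0.12 with the trend removed. The ratio of Irf8 to Gfi1 was 0.76, -0.30 and 0.60 in dKO, against 0.22, -0.43 and -0.05 in WT, a difference of 0.44 with exact p = 0.3. No ratio passed these tests, all adjusted p lying between 0.545 and 0.9.

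**Figure D4:**
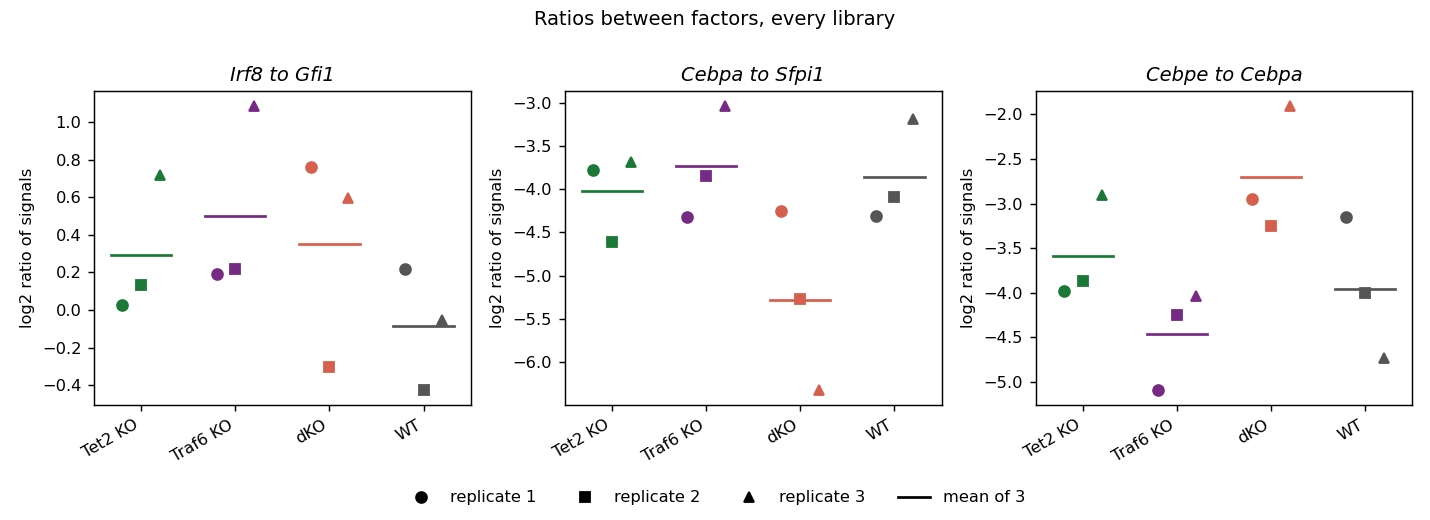
Log2 ratio of signals (vertical axis) for 3 pairs of factors in every library, by genotype; marker shapes are replicates and lines are means of 3. The dKO libraries spread from -6.33 to -4.25 in the ratio of Cebpa to Sfpi1, against -4.31 to -3.18 in WT.

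Over the 12 libraries some genes followed a member closely in log2 signal. The 2 highest Pearson correlations with Sfpi1 were those of Rdbp and Ube2r2 (0.989 each), and Ube2r2 was also first with the trend removed (0.983). Cebpb was followed by Pnp (0.987) and Ncf4, a subunit of the phagocyte oxidase (0.981). Cebpd was followed by Rnaseh1 (0.993) and Eif1ad (0.991), Id2 by Hmgb1-ps5 (0.964), and Myb by Mlst8 (0.987) and Rbm10 (0.984). Gfi1 was followed by Gna15 (0.934) and Cebpa by Utp14a (0.850). The points share genotype, library depth and the length trend, so these values only describe the 12 libraries.

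Targets and partners of these factors and further myeloid regulators were read from 7 lists, which share some genes. Their counts in dKO against WT are to be read beside the 21.9% of all tested genes called higher and 26.5% called lower, or 14.6% and 10.7% with the trend removed. The PU.1 list holds receptors, signalling adaptors and oxidase subunits of phagocytes. In dKO against WT 12 of its 22 tested genes were higher and 2 lower, with a median log2 change of 0.80 beside -0.09 over all genes; with the trend removed the count was 10 higher and 0 lower, and without dKO 3 it was 10 and 1. Cd53, a leukocyte tetraspanin, averaged 23924 ± 3493 in dKO and 6445 ± 1747 in WT (SD, n = 3 each; log2 1.92, adjusted p = 0.000389). The Fc receptor genes Fcgr2b and Fcgr3 changed by 2.63 and 3.54, adjusted p = 0.000411 and 0.000596. Tyrobp, a signalling adaptor of activating receptors in myeloid cells, changed by 3.30, adjusted p = 0.000790.

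Granule protein and maturation genes of the C/EBP list were higher in 7 of 16 and lower in 0, in dKO against WT, with a median of 1.12 (0.19 with the trend removed, when again 7 were higher and 0 lower). Without dKO 3 it was 6 higher and 0 lower with a median of 0.66. Elane, neutrophil elastase, averaged 12218 ± 7567 in dKO and 264 ± 187 in WT (SD, n = 3 each; log2 5.62, adjusted p = 0.000463). Prtn3 and Ctsg, 2 more azurophil granule proteases, changed by 3.51 and 4.41, and Hp, haptoglobin, by 5.32, adjusted p = 0.000386, 0.000509 and 0.000947. Of the IRF8 and monocyte or dendritic cell genes 6 of 13 were higher and 2 lower, median 1.82 (7 and 1 with the trend removed, median 0.96; 6 and 2 without dKO 3, median 1.09). Ly6c2, a surface marker of inflammatory monocytes, averaged 1211 ± 761 in dKO and 22.5 ± 12.5 in WT (log2 5.59, adjusted p = 0.000302). Ms4a6c, Ctss and the chemokine receptor gene Ccr2 changed by 3.04, 1.86 and 2.55, adjusted p = 0.000261, 0.00222 and 0.00774.

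Of the MYB targets 4 of 10 were higher and 1 lower in dKO against WT, median 0.48 (6 and 1 with the trend removed, median 1.05). The 4 are not all progenitor genes: Mpo (2.46, adjusted p = 0.00380), Elane and Prtn3 encode granule proteins and are also on the C/EBP list, and Lmo2 is a stem cell factor. Kit, the stem cell factor receptor gene whose protein the sort selects for, was the lower one, with 6713 ± 4522 in dKO and 46708 ± 1926 in WT (log2 -2.99, adjusted p = 0.000326; -1.83 with the trend removed). Of the genes repressed by GFI1, 4 of 9 were higher and 3 lower, median 0.05 (2 and 0 with the trend removed, median 0.75; 3 and 3 without dKO 3, median -0.07). Cdkn1a, a cell cycle inhibitor, and Egr1, an immediate early factor, changed by 2.88 and 2.42, adjusted p = 0.00103 and 0.00249, and Meis1 and Csf1 by -0.89 and -1.23, adjusted p = 0.00827 and 0.00948. The calls of Meis1 and Csf1 ended with the trend removed.

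Of the E protein genes whose products ID2 binds, 1 of 3 was lower in dKO against WT, beside 26.5% of all genes: Tcf12, log2 -1.40, adjusted p = 0.00144, a call that ended with the trend removed (-0.16), when Tcf4 was called higher. Of 29 tested further regulators 4 were higher and 11 lower, median -0.70, beside the same 26.5% lower, and with the trend removed 4 were higher and 0 lower, median -0.06. Klf2 (3.43, adjusted p = 0.000772), a zinc finger factor, was among the higher ones and averaged 712 ± 425 in dKO and 56.8 ± 16.9 in WT. Etv6, Stat5b and Stat3 changed by -1.82, -1.89 and -1.53, adjusted p = 0.000647, 0.000717 and 0.000718, and all 3 calls ended with the trend removed (-0.51, -0.58 and -0.05).

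**Figure D5:**
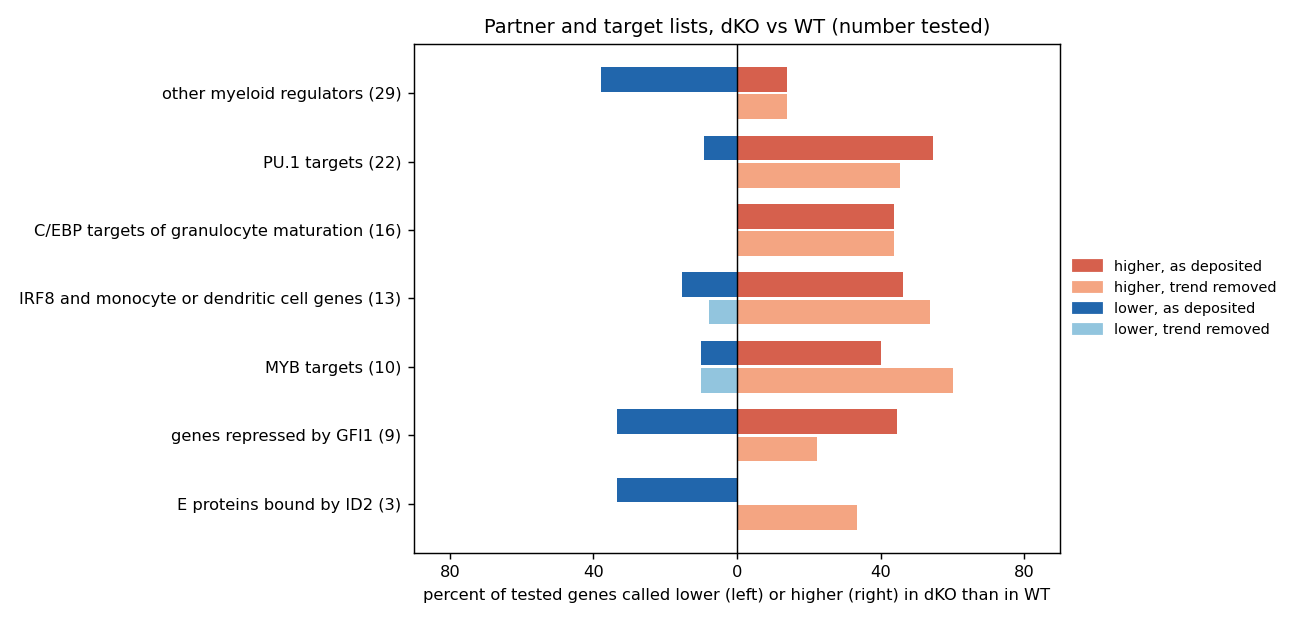
Percent of the tested genes of each list (number tested in brackets) called lower, to the left, or higher, to the right, in dKO against WT, on deposited values and after removal of the length and GC trend. The lower calls of the PU.1 list, the further regulators, the GFI1-repressed genes and the E proteins are gone with the trend removed, while 10 of 22 PU.1 targets and 7 of 16 C/EBP targets are called higher.

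The PU.1 and C/EBP lists were also read against the single knockouts. In dKO against Tet2 KO 10 of 22 PU.1 targets were higher and 3 lower (6 and 0 with the trend removed), and 8 of 16 C/EBP targets were higher and 1 lower (4 and 0), where 15.5% of all genes were higher and 19.9% lower (6.75% and 4.77%). In dKO against Traf6 KO the counts were 12 and 1 of 22 (5 and 0) and 5 and 0 of 16 (2 and 0), beside 17.3% higher and 20.7% lower of all genes (7.18% and 8.48%). Cd53 changed by 1.66 and 1.34 and Prtn3 by 2.51 and 2.43 against Tet2 KO and Traf6 KO, adjusted p = 0.00528, 0.00428, 0.00737 and 0.00435. Kit changed by -2.49 and -2.83, adjusted p = 0.00494 and 0.00173. Of the 91 distinct list genes tested, limma called 0 in Tet2 KO against WT and 0 in Traf6 KO against WT, where 14 and 17 had an unadjusted p under 0.05; edgeR called 0 and 0, and DESeq2 2 and 8. Elane stood at log2 3.60, adjusted p = 0.0952, in Tet2 KO and 3.21, adjusted p = 0.210, in Traf6 KO. Ly6c2 stood at 3.40, adjusted p = 0.0592, in Tet2 KO and 2.93, adjusted p = 0.152, in Traf6 KO. With the trend removed limma called Ly6c2 higher in Tet2 KO against WT (3.28, adjusted p = 0.0442), beside 0.556% of all genes called. In Traf6 KO against WT it then called Ms4a6c, a membrane protein gene of the IRF8 list, higher (1.41, adjusted p = 0.0153) and Cd74, the invariant chain of MHC class II, lower (-1.75, adjusted p = 0.0348), beside 0.431% of all genes.

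Marker lists of other cells were summed per library. The sums of the mature neutrophil and of the T or NK cell markers overlapped between dKO and WT. The summed signal of 7 monocyte, macrophage and dendritic cell markers was 2680.35 to 5594 in dKO and 595 to 932 in WT; Cd68 led it, and Cd209a, a dendritic cell marker, was at 0 in both groups. That of 6 mature neutrophil markers was 618 to 4055 in dKO and 434 to 1123 in WT, all 6 being detected. That of 5 mast cell or basophil markers was 5934 to 10437 in dKO and 1349 to 2079 in WT, with Cma1 at 0 in WT. That of the 9 erythroid markers was 83636 to 120189 in dKO and 43814 to 55430 in WT. Car2 led it, at 50253 to 93622 in dKO and 41233 to 52304 in WT. That of the 5 B cell markers found was 1721 to 7694 in dKO and 997 to 1545 in WT. Cd79b led it, at 1693 to 6999 in dKO and 978 to 1539 in WT. The other sums were 6605 to 10146 in dKO and 10169 to 12417 in WT for 6 megakaryocyte markers, 89.4 to 223 in dKO and 87.5 to 101 in WT for 7 T or NK cell markers, with Cd3e, Cd3g and Gzma at 0 in both, and 2.82 to 8.94 in dKO and 38.8 to 145 in WT for 5 markers of stroma or endothelium. The 10 markers of LSK cells, Kit among them, summed to 90441 to 109721 in dKO and 137034 to 152252 in WT, and all 10 were detected in both groups. Kit averaged 6713 ± 4522 in dKO and 46708 ± 1926 in WT (SD, n = 3 each). Cd34, the most abundant of the 10, overlapped, at 40877 to 59383 in dKO and 37782 to 52709 in WT. The lower sum thus does not show a fall of the whole set. The share of such cells in the rise of Sfpi1, Cebpb, Cebpd and Id2 and in the myeloid lists was not tested.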

How the data were processed

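Messenger RNA of sorted LSK cells was measured in 12 libraries made with a SMART-Seq low-input kit, per the labels' protocols. The authors deposited a normalised signal, each gene's whole reads over the library's size factor. Tools in the submitters' processing notes are bcl2fastq, STAR, featureCounts and DESeq2, with builds mm10 and GRCm38; annotation, versions and strand setting are not given in the sources used here. Reads were recovered from the deposited signal, since 100% of values were whole multiples of 1 read (tolerance 1e-06). Genes that reached 10 in 3 or more libraries (14045) were tested with limma 3.58.1 (R 4.3.3, trend and robust) on log2(value + 1), with all 12 libraries as 4 groups in 1 fit, no covariates, and Benjamini-Hochberg adjustment at 0.05. Fold changes on this scale understate changes of low genes. Single ratios were compared with exact permutation tests (Python 3.11.15).

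The length and GC trend is a loess fit (span 0.5) per library on the longest protein-coding transcript of GENCODE M21, at hand for 13677 tested genes. Further alternatives were a pseudocount of 5, no filter, equal library totals, a replicate block, the 2 groups alone, each library left out, and edgeR 4.0.16 and DESeq2 1.42.0 on the recovered reads. On those reads edgeR called 47, 28, 6607, 4989, 5250 and 31 genes for Tet2 KO, Traf6 KO and dKO against WT, dKO against Tet2 KO, dKO against Traf6 KO, and the interaction, and DESeq2 called 286, 167, 7478, 6122, 6372 and 227. Leaving out dKO 3 with the trend removed and the shorter Cebpd transcript were chosen after seeing the data. The limma and edgeR fits of dKO against WT were tested on simulated data, the others were not. Members and lists were chosen with earlier results of these data known. Named list genes are the called members with the smallest p, up to 4 per list and comparison, else the 2 smallest. For each member the 2 genes of highest correlation with a mean of at least 50 were named, apart from predicted genes and antigen receptor segments; some of them are not reported here.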

Additional observations from a re-analysis of the deposited data

How the results depend on the processing

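Over 1233 member values under the alternatives, 1135 kept direction and side of the threshold, 40 lost a call, 8 gained one, and 50 changed sign with neither value called. Genes called in Tet2 KO against WT (58) were 327 with the 2 groups alone, 286 by DESeq2, 126 with the trend removed and dKO 3 left out, and 22 to 146 with 1 library left out. In Traf6 KO against WT (38) they were 59 with the trend removed, with either Cebpd transcript, 167 by DESeq2, 120 without dKO 3 and the trend, and 18 to 78 with 1 library left out. In dKO against WT (6790) they were 3461 with the trend removed, 3459 with the shorter Cebpd transcript, 3157 without dKO 3 as well, and 4707 to 7768 with 1 library left out; members called (5) were 2 without the trend and dKO 3, and 5 in every fit without 1 library.

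In dKO against Tet2 KO (4963) genes called were 1576 with the trend removed, with either transcript, 24 with the 2 groups alone, 1039 without the trend and dKO 3, and 867 to 6724 with 1 library left out. Members called (5) were 3, 0, 2 and 0 to 5 under those settings. In dKO against Traf6 KO (5342) genes called were 2142 with the trend removed, 2143 with the shorter transcript, 970 with the 2 groups alone, 1460 without the trend and dKO 3, and 2069 to 6946 with 1 library left out; members called (4) were 0 with the 2 groups alone and 2 to 6 with 1 library left out. The interaction (31 genes, 0 members) gave 227 genes by DESeq2, and 14 to 2445 genes and 0 to 3 members with 1 library left out; it was not run on 2 groups alone. Equal library totals moved the median of all genes in dKO against WT to -0.34 from -0.09, and Gfi1 against Traf6 KO was then not called (adjusted p = 0.0826) while Myb was (0.0459). The ratio of Cebpe to Cebpa with the trend removed, with or without the block, was -0.12 in dKO against WT, -0.32 against Tet2 KO and 0.63 against Traf6 KO. Where no construction shows it, the cause was not tested.

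Replicate numbers did not pair the samples: over 18 same-numbered pairs the correlation of deviations was -0.18 to 0.19, and 3 pairs exceeded 0.1. With a replicate block, genes called were 45, 29, 6574, 4633, 4917 and 25 in the 6 comparisons, and members called 0, 0, 5, 5, 4 and 0. With the block and the trend removed, genes called were 3493 in dKO against WT, 1633 against Tet2 KO and 2133 against Traf6 KO, with 3 members called against Tet2 KO.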
